A study of Mus musculus with 4 samples.

Results

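The 9 genes Lyz2, Cd14, Csf1r, Adgre1, Cd68, Ly6c2, Spi1, Tyrobp and Plac8, chosen by name as identity genes of monocytes and macrophages, were followed through 4 RNA-seq libraries of cells isolated from mouse skin. They are 9 of the 55335 genes in the deposited tables. One genotype was Mettl3fl/fl;Cd4-Cre, in which Cre recombinase under the Cd4 promoter acts in developing T cells on floxed alleles of Mettl3, the catalytic subunit of the RNA m6A methyltransferase. The controls were Mettl3fl/fl mice, which carry the floxed alleles without Cre. Each genotype had 2 libraries, named here Cre 1, Cre 2, control 1 and control 2, and the labels do not say how many mice went into each. All mice were 8 to 12 weeks old and were treated with 5% imiquimod cream on the back for 5 days, which gives a psoriasis-like inflammation. The labels give 15 mg and 62.5 mg as daily amounts, without saying which mouse had which. Dermal cell suspensions were stained for CD45 and CD4, and the samples carry the cell type label CD4+ T cells; the gate is not described. The cDNA was primed with oligo-dT and amplified by a SMART protocol. The comparison of genotypes is the only one the labels allow, and the Cre acts in T cells, whereas the genes described here are known from myeloid cells.

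Monocytes develop in the bone marrow under the control of the transcription factor PU.1, the product of Spi1, enter inflamed skin and can become macrophages or dendritic cells. Their growth and survival depend on the receptor for colony-stimulating factor 1, encoded by Csf1r, and Ly6c2 marks the inflammatory subset in mouse blood. Cd14 presents bacterial lipopolysaccharide to Toll-like receptor 4, Tyrobp is the signalling adaptor of many activating myeloid receptors, Lyz2 and Cd68 belong to the lysosomal compartment, and Adgre1 encodes the macrophage antigen F4/80. None of these genes is limited to one cell type: neutrophils, dendritic cells, B cells or natural killer cells share several of them, and Plac8 and Ly6c2 can also be expressed by lymphocytes.

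Totals were between 3614418 and 4537006 counted fragments per library. Levels are given as CPM, fragments scaled to library size with TMM factors, which correct for library composition; a count of 0 allows up to 0.749 and 0.709 CPM in Cre 1 and Cre 2, and 0.655 and 0.792 CPM in control 1 and control 2 (3 fragments). Fragments fell in 20100 genes in Cre 1 and 16273 in Cre 2, against 19378 in control 1 and 11424 in control 2. Control 2 stood apart in its keratinocyte markers too: these 8 genes summed to 1892 and 801.4 CPM in Cre 1 and Cre 2, against 1114 and 19945 CPM in control 1 and control 2. Y-linked transcripts (4 genes) had 118 fragments in Cre 2 and 76 in control 1, and 0 and 1 in Cre 1 and control 2, while Xist had 20 fragments in Cre 2 and 1858 to 8909 elsewhere, so control 1 held both. The targeted gene gives no check of the labels: Mettl3 had 121 and 158 fragments in Cre 1 and Cre 2, against 195 and 49 in control 1 and control 2, 89.9% of them in retained-intron rows and none in a protein-coding row.

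The cell type label was checked with T cell markers, whose counts are also made from exons. How much of each T cell marker was countable was not computed. Their sum can be compared between libraries but not with that of the 9 myeloid genes. The 13 T cell markers summed to 313.2 and 161.9 CPM in Cre 1 and Cre 2, against 1097 and 330.2 CPM in control 1 and control 2, and Cd4 itself was at 104.8, 2.13, 169.6 and 0 CPM in that order. The 9 myeloid genes summed to 22400 CPM in Cre 1 and 18738 CPM in Cre 2, against 13409 CPM in control 1 and 4990.05 CPM in control 2, that is, 2.08% and 1.82% of all fragments against 1.35% and 0.523%. Lyz2 and Cd14 together made up 92.4% to 97.3% of the sum in every library. Without them the other 7 genes summed to 1263 and 1219 CPM in the Cre libraries, against 1026 and 136.7 CPM in the controls. In bulk libraries such as these, more cells of a type and more RNA per cell cannot be told apart.

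**Figure D1:**
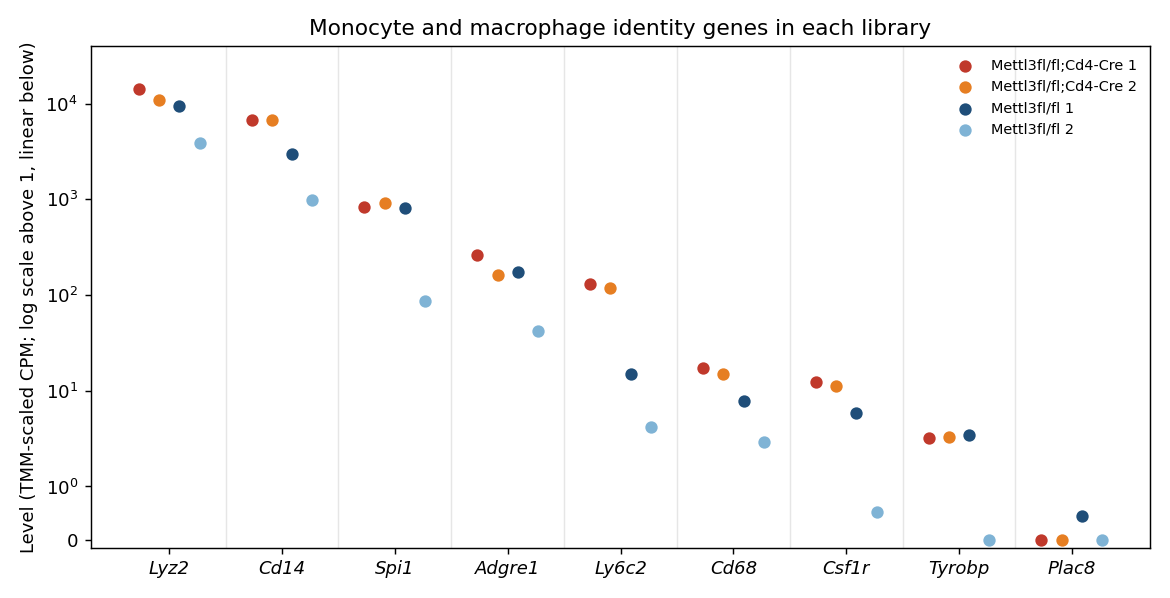
Level of each of the 9 genes in each library, as TMM-scaled CPM on an axis that is logarithmic above 1 and linear below. Points are single libraries, with the Mettl3fl/fl;Cd4-Cre libraries left of the Mettl3fl/fl libraries; control 2 is lowest for the 8 genes from Lyz2 to Tyrobp, and Ly6c2 shows the widest gap between the genotypes.

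Of the 9 genes, 8 had enough fragments to be tested, and 6 of these 8 (Lyz2, Cd14, Csf1r, Cd68, Ly6c2 and Spi1) lay higher in both Cre libraries than in both controls, where 19.5% of all 12434 tested genes did. None of the 8 passed the test of the difference at an adjusted p of 0.05 (edgeR quasi-likelihood test, Benjamini-Hochberg adjustment over all 12434 genes), and neither did any other gene, so the background of calls is 0%; the smallest adjusted p of any gene was 0.9997. Other fits called 0 of the 9 as well: DESeq2 called 0.0322% of all genes higher and 0.105% lower, edgeR with no filter on low counts 0.0325% higher and 0.0771% lower, edgeR without Cre 1 0.0136% lower, and edgeR without Cre 2 0.027% higher. The log2 fold changes, Cre over control, were positive for all 8, as for 56.9% of all genes tested, with a median of 1.27 (0.89 to 3.69) against 0.20 over all genes. An unadjusted p under 0.05 was found for 2 of the 8, Ly6c2 and Cd14, and for 187 of all genes (1.5%). Without control 1 it was found for 6 of the 8 and for 4584 of 14440 genes, and without Cre 1 or without Cre 2 for 0 of the 8. With control 2 set aside, the same 6 genes lay above control 1 in both Cre libraries, where 28.8% of all tested genes did, and the median log2 fold change was 0.70. All 8 lay above control 2 in both Cre libraries, where 54.5% of all tested genes did.

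The files count exons, not genes, and this sets what each of the 9 values rests on. Each line of the deposited tables is an exon of 1 annotated transcript, here called an exon row, and rows that share their coordinates with another transcript's row held no fragment in any library. Lyz2 has 4 rows from a single transcript, and all 1316 exonic bases were free of other rows. Adgre1 has 61 rows, of which 50 share coordinates; 97 of its 3238 exonic bases (3.00%) lay in a single row, and 99.96% of its fragments fell in 1 row at the end of the gene. Csf1r had fragments in 5 of 63 rows, Cd68 in 3 of 17, Tyrobp in 2 of 16 and Spi1 in 6 of 14. Rows partly covered by others could also take fragments, so the free bases are only a guide to what was countable. Low counts of Csf1r, Tyrobp and Cd68 therefore say little about how abundant these RNAs were, and CPM values of different members cannot be compared directly. Per kilobase of the rows that held fragments, Lyz2 averaged 7297 CPM over the 4 libraries, Cd14 1742, Adgre1 331.5 and Spi1 265.2, the same order of these 4 as per kilobase of free bases.

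**Figure D2:**
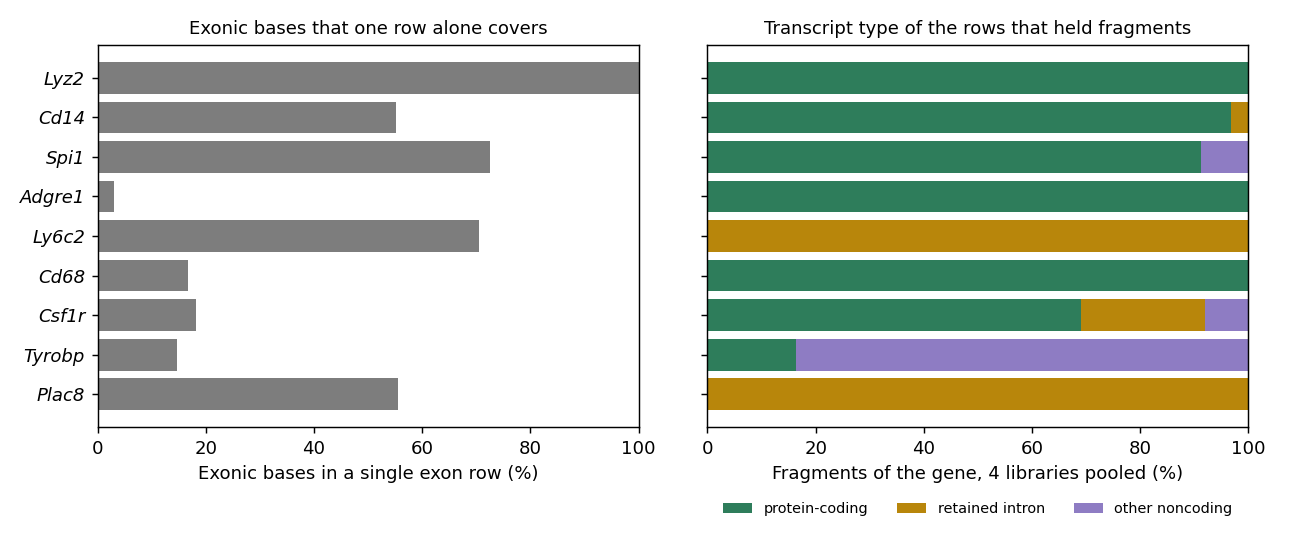
Left, share of each gene's exonic bases that lie in a single exon row (%). Right, share of the gene's fragments, pooled over the 4 libraries (%), by the GENCODE M21 transcript type of the row; Adgre1 has 3.00% of its bases free, and nearly all Ly6c2 fragments lie in retained-intron rows.

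Spi1, the gene of the lineage factor PU.1 (ENSMUSG00000002111, GRCm38 chr2:91082390-91115756, plus strand), was at 839.6 and 909.2 CPM in Cre 1 and Cre 2, against 820.3 and 87.4 CPM in control 1 and control 2. The 2 Cre libraries and control 1 lie close together, and control 2 is far below. On the log2 scale the edgeR fold change was 0.95 ± 1.04 (± is the standard error in all such values), with 0.08 without control 2 and 3.39 without control 1. The last exon held 84.9% of the fragments, at 704.1 and 778.0 CPM in the Cre libraries, against 691.5 and 83.4 CPM in the controls. An internal row of 898 bases went the other way between Cre 2 and control 1: it had 66 and 4 fragments in Cre 1 and Cre 2, against 145 and 0 in control 1 and control 2.

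Csf1r, the receptor for colony-stimulating factor 1 and interleukin 34 (ENSMUSG00000024621, chr18:61100598-61132149, plus strand), was counted from 49 and 48 fragments in Cre 1 and Cre 2, against 27 and 2 in control 1 and control 2. As CPM with exact Poisson 95% intervals, which cover counting error only, these were 12.2 (9.05 to 16.2) and 11.3 (8.37 to 15.0), against 5.89 (3.88 to 8.58) and 0.528 (0.0639 to 1.91). The values of both Cre libraries lie above those of both controls, but the intervals of Cre 2 and control 1 overlap. The rows behind the 2 Cre values differ, however: a retained-intron row held 29 of the 49 fragments of Cre 1 and 0 in every other library, while the last exon held 15 and 47 in Cre 1 and Cre 2, against 22 and 0 in the controls. In none of the counted rows of Csf1r did both Cre libraries lie above both controls. EdgeR gave a log2 fold change of 1.86 ± 1.88 (SE), with 0.99 without control 2 and 4.47 without control 1.

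Adgre1 (F4/80; ENSMUSG00000004730, chr17:57358691-57483527, plus strand) was at 260.3 and 160.5 CPM in Cre 1 and Cre 2, against 172.7 and 41.7 CPM in control 1 and control 2. Control 1 lies between the Cre libraries, so the groups overlap. EdgeR gave a log2 fold change of 0.97 ± 0.88 (SE), with 0.28 without control 2 and 2.40 without control 1.

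Cd14 (ENSMUSG00000051439, chr18:36725067-36726798, minus strand) was at 6786 and 6710.0 CPM in Cre 1 and Cre 2, against 3005 and 977.5 CPM in control 1 and control 2. The Cre libraries differ by a factor of 1.01 and the controls by 3.07, and the groups do not overlap. Means were 6748 ± 53.5 CPM in the Cre libraries and 1991 ± 1434 CPM in the controls (SD, n = 2 each). EdgeR gave a log2 fold change of 1.76 ± 0.67 (SE), with 1.16 without control 2 and 2.85 without control 1. The row of the main exon, which held 96.6% of the fragments, and a retained-intron row of the same gene both had the Cre libraries above the controls, at 255.1 and 224.6 CPM in the Cre libraries, against 81.6 and 18.5 CPM in the controls for the retained-intron row. The third row, the first exon, held 0 to 10.2 CPM and overlapped.

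Tyrobp (ENSMUSG00000030579, chr7:30413760-30417585, plus strand) had 13 and 14 fragments in Cre 1 and Cre 2, against 16 and 0 in control 1 and control 2. Control 1 was highest and control 2 lowest, so the groups overlap, and edgeR gave a log2 fold change of 0.89 ± 2.43 (SE). It was -0.10 without control 2 and 6.75 without control 1, then against a library with 0 fragments. Of all 43 fragments, 83.7% lay in a row of 67 bases given to a transcript marked for nonsense-mediated decay.

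Lyz2, the lysozyme of phagocytes (ENSMUSG00000069516, chr10:117277331-117282321, minus strand), had the most counted fragments of the 9 genes in each library. It had 14351 and 10809 CPM in Cre 1 and Cre 2, against 9378 and 3876 CPM in control 1 and control 2, and the groups do not overlap. EdgeR gave a log2 fold change of 0.92 ± 0.60 (SE), with 0.42 without control 2 and 1.77 without control 1. The ratio of group means was alike in its 4 exon rows, between 1.88 and 1.91, and 3 of the 4 rows separated the groups; in the first exon Cre 2 and control 1 were level at 487.0 and 487.4 CPM. Its neighbour Lyz1, the Paneth cell lysozyme gene, is a near copy, and the counting command in the headers asks for no multiply mapped fragments. The opening 120 coding bases of both genes (GENCODE M21 transcripts, GRCm38) are shown because reads of the genes can be told apart only where they differ; capitals mark the bases that differ.
Lyz2: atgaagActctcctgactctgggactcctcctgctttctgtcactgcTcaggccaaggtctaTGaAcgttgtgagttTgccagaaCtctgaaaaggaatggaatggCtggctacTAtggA
Lyz1: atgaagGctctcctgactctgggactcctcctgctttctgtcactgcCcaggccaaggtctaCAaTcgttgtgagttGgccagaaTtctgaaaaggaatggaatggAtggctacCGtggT
Over the whole coding sequence of 447 bases the genes differ at 22 positions, 11 of them within the stretch shown, and the longest identical run is 118 bases. Of all 50-base windows in the Lyz2 transcript, 15.4% also occur in the Lyz1 transcript.

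Cd68, a glycoprotein of late endosomes and lysosomes (ENSMUSG00000018774, chr11:69664213-69666153, minus strand), had 69 and 63 fragments in Cre 1 and Cre 2, against 36 and 11 in control 1 and control 2, or 17.2 and 14.9 CPM against 7.86 and 2.90 CPM. Each of its 3 counted rows had both Cre libraries above both controls. EdgeR gave a log2 fold change of 1.57 ± 1.54 (SE), with 1.02 without control 2 and 2.52 without control 1.

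Ly6c2, a surface antigen of inflammatory monocytes (ENSMUSG00000022584, chr15:75108158-75111970, minus strand), showed the largest log2 fold change of the 8 tested genes. It had 524 and 505 fragments in Cre 1 and Cre 2, against 69 and 16 in control 1 and control 2, or 130.8 and 119.4 CPM against 15.1 and 4.22 CPM. The 2 Cre libraries differ by a factor of 1.10, and the lower of them lies far above the higher control. EdgeR gave a log2 fold change of 3.69 ± 1.06 (SE), with 3.04 without control 2 and 4.94 without control 1. Of its fragments, 97.2% lay in a row of 2470 bases (75108158 to 75110627) that GENCODE M21 gives to a retained-intron transcript, and 99.9% in retained-intron rows; without such rows 1 fragment was left and the gene could not be tested. Over all genes, retained-intron rows held 9.33% and 8.89% of fragments in Cre 1 and Cre 2, against 7.63% and 7.23% in control 1 and control 2; the part of this in the Ly6c2 result was not tested. Counting was without strand, so RNA from the opposite strand of this row would be counted with it.

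The middle of the longest part of this row that no other row covers is shown as an example of the intronic sequence it spans (150 bases, GRCm38 chr15:75109557-75109706, minus strand, 5′ to 3′, GENCODE M21).
Ly6c2 retained-intron row: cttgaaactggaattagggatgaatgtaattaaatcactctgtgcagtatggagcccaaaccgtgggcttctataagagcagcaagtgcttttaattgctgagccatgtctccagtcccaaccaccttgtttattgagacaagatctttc
The row also spans coding exons, and the tables do not say where within it a fragment fell. The coding sequence differs from that of the nearby gene Ly6c1 at 9 of 396 positions, 6 of them in the opening 120 bases shown here with the differing bases in capitals.
Ly6c2: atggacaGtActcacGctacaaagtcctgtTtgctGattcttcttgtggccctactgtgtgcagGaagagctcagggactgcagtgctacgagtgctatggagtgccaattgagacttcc
Ly6c1: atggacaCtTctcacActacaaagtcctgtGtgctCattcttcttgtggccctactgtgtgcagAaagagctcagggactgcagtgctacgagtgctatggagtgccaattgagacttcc
The longest identical run is 188 bases. Of the 50-base windows in the retained-intron row, 13.5% occur in a Ly6c1 transcript, and repeats elsewhere in the genome were not examined. Ly6c1 had 7 and 6 fragments in Cre 1 and Cre 2, against 11 and 0 in control 1 and control 2.

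Plac8, a small cysteine-rich protein of myeloid and lymphoid cells (ENSMUSG00000029322, chr5:100553725-100572245, minus strand), was close to absent from the counts. It had 0 fragments in both Cre libraries, against 2 in control 1 and 0 in control 2, and both fragments lay in a retained-intron row. Of its 1592 exonic bases 884 (55.5%) were free of other rows, a larger share than in Csf1r, Cd68, Tyrobp or Adgre1. It was not tested, and no fold is given because all libraries are under the limit of 3 fragments.

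Promoter windows from RefSeq (build GRCm38.p6, 250 bases before to 50 after the start) were matched for 4 of the 9 genes, Lyz2, Cd68, Ly6c2 and Plac8, with 6 windows in all. They were searched on both strands for GAGGAA, the core of the site that PU.1 is known to bind. It was found in 4 of the 6 windows, those of Cd68, Ly6c2 (both windows) and 1 of the 2 of Plac8. The Ly6c2 windows overlap and hold the same matches, so these are counted in both. Of all 32851 windows searched, 28.3% held it. The 250 bases before the start are shown for Ly6c2, Cd68 and Lyz2, with matches in capitals (TTCCTC on the other strand).
Ly6c2 promoter, chr15:75111938-75112187, minus strand: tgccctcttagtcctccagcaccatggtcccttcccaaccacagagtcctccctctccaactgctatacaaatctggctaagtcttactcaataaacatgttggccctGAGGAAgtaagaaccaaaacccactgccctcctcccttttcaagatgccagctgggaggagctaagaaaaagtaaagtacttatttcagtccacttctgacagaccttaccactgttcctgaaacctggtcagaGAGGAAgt
Cd68 promoter, chr11:69666171-69666420, minus strand: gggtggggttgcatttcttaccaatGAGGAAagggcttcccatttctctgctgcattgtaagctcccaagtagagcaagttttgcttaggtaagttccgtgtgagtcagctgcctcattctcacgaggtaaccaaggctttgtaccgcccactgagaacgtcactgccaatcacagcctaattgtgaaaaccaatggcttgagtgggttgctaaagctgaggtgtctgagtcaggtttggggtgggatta
Lyz2 promoter, chr10:117282273-117282522, minus strand: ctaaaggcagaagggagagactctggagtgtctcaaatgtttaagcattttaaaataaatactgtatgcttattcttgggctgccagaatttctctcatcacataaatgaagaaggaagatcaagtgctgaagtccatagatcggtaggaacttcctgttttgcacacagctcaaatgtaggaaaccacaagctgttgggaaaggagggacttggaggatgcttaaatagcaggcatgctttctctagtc
The Ly6c2 matches begin 142 and 8 bases before the start, and that of Cd68 225 bases before it, with a second 29 bases after it that is not shown. The letters do not occur in the Lyz2 window. In the Plac8 window that holds them, not shown, they begin 146 and 15 bases before the start. A relation between matches and fold changes was not tested. A match describes the sequence only, and binding was not measured.

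**Figure D3:**
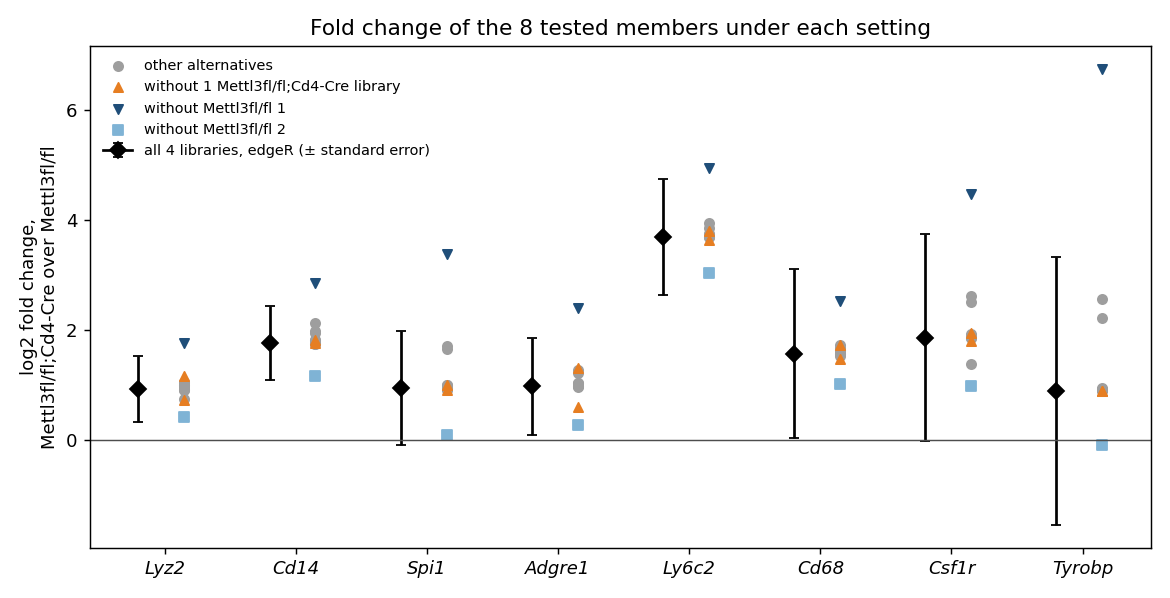
Log2 fold change of the 8 tested genes, Mettl3fl/fl;Cd4-Cre over Mettl3fl/fl. Black diamonds are edgeR estimates with all 4 libraries (bars, ± standard error) and the points beside them alternatives; leaving out control 1 gives the highest and leaving out control 2 the lowest value of each gene, and only Tyrobp crosses 0, at -0.10.

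How the genes stood against each other can be read within a library, free of scaling. Per 1000 Lyz2 fragments there were 9.11 and 11.0 Ly6c2 fragments in Cre 1 and Cre 2, against 1.61 and 1.09 in control 1 and control 2. Cd14 had 472.8 and 620.8 per 1000 Lyz2 fragments in the Cre libraries, against 320.5 and 252.2 in the controls. Both ratios to Lyz2 separate the genotypes, and the controls lie closer to each other than in CPM. Per 1000 Spi1 fragments, Cd14 overlapped, at 8082 and 7380 in the Cre libraries, against 3664 and 11187 in the controls. Ly6c2 separated there too, at 155.8 and 131.3 against 18.4 and 48.3. Ratios of Spi1 to Lyz2 overlapped, at 58.5 and 84.1 against 87.5 and 22.5, as did those of Adgre1, at 18.1 and 14.9 against 18.4 and 10.8. Ly6c2 was also higher relative to Cd14, at 19.3 and 17.8 per 1000 Cd14 fragments in the Cre libraries, against 5.01 and 4.32 in the controls. These ratios are given as values and were not tested.

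**Figure D4:**
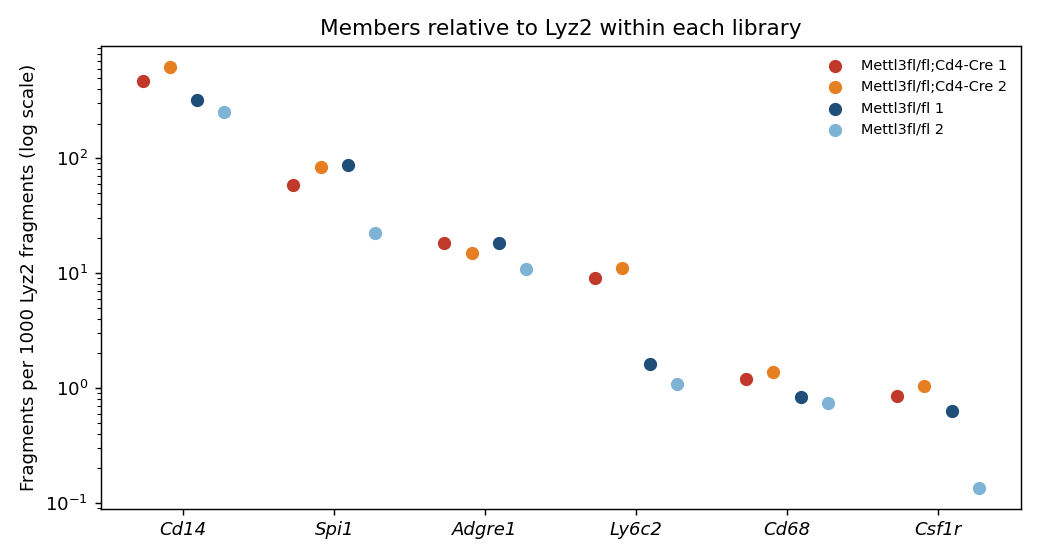
Fragments of 6 genes per 1000 Lyz2 fragments within each library, on a log scale, with the Mettl3fl/fl;Cd4-Cre libraries left of the Mettl3fl/fl libraries. Ly6c2 is at 9.11 and 11.0 in the Cre libraries and at 1.61 and 1.09 in the controls, while Spi1 and Adgre1 overlap between the genotypes.

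Libraries alike in Y-linked transcripts can be set against each other, Cre 2 with control 1 (fragments present) and Cre 1 with control 2 (0 and 1 fragments). Cre 2 and control 1 were not alike in Xist, at 20 and 1858 fragments, so they are not matched for sex. Between Cre 2 and control 1, the log2 ratio of CPM was 2.99 for Ly6c2, 1.16 for Cd14, 0.95 for Csf1r, 0.92 for Cd68, 0.20 for Lyz2, 0.15 for Spi1, -0.08 for Tyrobp and -0.11 for Adgre1. Between Cre 1 and control 2 it was 4.95 for Ly6c2, 2.80 for Cd14, 4.53 for Csf1r, 2.57 for Cd68, 1.89 for Lyz2, 3.26 for Spi1 and 2.64 for Adgre1. Control 2 held 2 Csf1r fragments, under the limit of 3, so the size of that ratio is not reliable. The second set contains control 2, the library with high keratinocyte markers, so its larger ratios cannot be told apart from that library's makeup. Each of these ratios rests on 1 library a side.

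The shared pattern of the 8 tested genes, taken as the median of their log2 CPM centred over the 4 libraries, ran from Cre 1 over Cre 2 and control 1 down to control 2. Cd14 followed it most closely, at a root mean square distance of 0.21, and Ly6c2 least, at 1.04. Among 5212 other genes with a mean of at least 20 CPM, those nearest to it were Ist1, Ccl9, Fbxo42, Lgals3bp and Rnf169, at distances of 0.04 to 0.11 over the 4 libraries. Ccl9, a chemokine of mouse myeloid cells, was at 1955 and 1574 CPM in the Cre libraries, against 1016 and 237.0 CPM in the controls. With 4 libraries many genes can share such a pattern.

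Other myeloid genes were counted in 6 companion lists of 74 genes, 58 of them tested. None passed the test, 43 had a positive log2 fold change (56.9% of all tested genes did), 26 lay higher in both Cre libraries than in both controls (19.5% of all) and 2 lower (11.2% of all). Of 8 tested colony-stimulating factor genes, 3 separated upward: the granulocyte factor Csf3 (820.7 and 641.8 CPM in the Cre libraries, against 308.9 and 47.5 CPM in the controls), the receptor subunit Csf2rb2 (374.4 and 330.0 against 227.7 and 0.792) and Csf2rb, while the receptor chain Csf2ra overlapped. The 2 ligands of Csf1r had low counts, Csf1 at 0 to 6.77 CPM and Il34 at 0 to 1.31 CPM over the 4 libraries. How much of either gene was countable was not computed, so these values say little about their abundance. Of 8 tested myeloid transcription factors, 3 separated upward, among them Zeb2 and, by a very small margin, Runx1. Runx1 was at 152.3 and 118.2 CPM in Cre 1 and Cre 2, against 110.2 and 118.0 CPM in control 1 and control 2. Klf4 and Maf overlapped, with log2 fold changes of -0.06 and -0.05. The median over this list was 0.10.

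Of 9 genes in the list named for the lipopolysaccharide receptor that Cd14 serves, 4 separated upward and 1, Lbp, downward. Over all tested genes 19.5% did so upward and 11.2% downward, and the same shares apply to the lists that follow. The list also holds Tlr2, another Toll-like receptor, which is among those that separated upward. Tlr2 was at 4885 and 2632 CPM in Cre 1 and Cre 2, against 2098 and 386.2 CPM in control 1 and control 2, Tlr4 at 243.1 and 97.6 against 68.1 and 75.0, and the adaptor Ticam2 at 190.4 and 141.4 against 70.9 and 13.2. The list named for adaptor partners of Tyrobp had 9 tested genes, of which 3 separated upward (Syk, Trem1 and Trem3) and 1 downward (Klrk1). Plcg2 and Sirpb1a overlapped. Of 10 tested monocyte markers 5 separated upward, with a median log2 fold change of 1.15. Chil3, a chitinase-like protein of monocytes and neutrophils, was at 6575 and 4331 CPM in the Cre libraries, against 1685 and 510.5 CPM in the controls, and Ms4a4c at 292.0 and 117.0 against 62.2 and 13.7, while Vcan overlapped. Of 14 tested tissue macrophage markers 8 separated upward with a median of 0.72, among them Ctsb, a lysosomal protease (6125 and 4742 CPM in the Cre libraries, against 4094 and 2572 CPM in the controls), and the complement subunits C1qb (2887 and 4805 against 2886 and 2025) and C1qa (1970 and 2435 against 1786 and 1738). C1qa differed little between the controls, and C1qb was level in Cre 1 and control 1.

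Markers of other cells that share these genes were counted beside them. Neutrophil markers (12 genes) summed to 1578 and 759.6 CPM in Cre 1 and Cre 2, against 370.0 and 251.8 CPM in control 1 and control 2, with both Cre libraries above both controls, as for Ly6c2 and Cd14. Of the 12, 3 could be tested: Mmp8, S100a8 and Mmp9. Most of the sum was Mmp8, at 1527 and 642.8 CPM in the Cre libraries, against 342.7 and 231.5 CPM in the controls. S100a8 was at 42.9 and 74.0 CPM in the Cre libraries, against 11.6 and 19.3 CPM in the controls. Mmp9 ran the other way, with overlap, at 2.50 and 0.236 CPM in the Cre libraries, against 12.9 and 0 CPM in the controls (edgeR log2 fold change -2.22), and S100a9, Ly6g and Mpo were at 0 in all 4 libraries. Dendritic cell markers (10 genes) summed to 1762 and 840.9 CPM, against 2208 and 393.3 CPM. Natural killer cell markers (6 genes) reached 7.24 CPM at most, all of it Klrb1c, with Ncr1, Nkg7, Gzma and Klrd1 at 0. B cell markers (7 genes) reached 8.49 CPM at most, led by Cd79a, with 4 genes at 0 throughout. Exon rows with shared coordinates held no fragment, and how much of each marker was countable was not computed. A marker at 0 or a low sum therefore does not show that the RNA or the cell type was absent. Mast cell markers summed to 97.4 to 374.5 CPM and endothelial markers to 6.34 to 39.2 CPM. Fibroblast markers summed to 5598 and 5700.1 CPM in the Cre libraries, against 12029 and 2583 CPM in the controls. The highest gene of each list in the mean over the 4 libraries was Ccr7 for dendritic cells, Cpa3 for mast cells, Kdr for endothelium, Mmp2 for fibroblasts and Perp for keratinocytes, but none of these was the highest in every library. T cell markers had negative log2 fold changes, all 13 of them, where 56.9% of all tested genes had positive ones. Of the 13, 6 were lower in both Cre libraries than in both controls, as were 11.2% of all tested genes. The other markers overlapped, with control 1 highest and control 2 lowest, or level with Cre 2 at 0 for Cd5, Lck and Cd247. Trac, the highest of the T cell markers in the mean over the 4 libraries, was at 34.9 and 25.5 CPM in the Cre libraries, against 197.8 and 73.1 CPM in the controls. The part of these cell mixtures in the levels of the 9 genes was not tested.

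**Figure D5:**
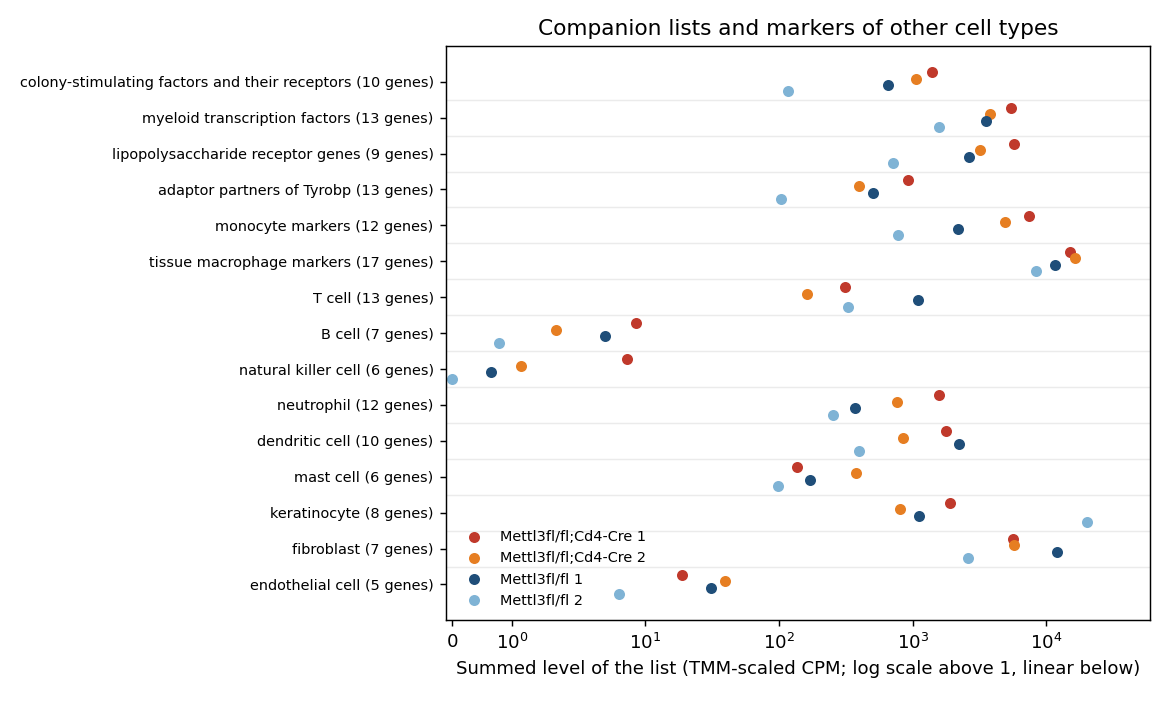
Summed level of each companion list and each list of markers for another cell type, in TMM-scaled CPM on an axis that is logarithmic above 1 and linear below. Points are single libraries; keratinocyte markers are at 19945 CPM in control 2 and at 801.4 to 1892 CPM in the other 3 libraries.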

How the data were processed

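Each library's table holds raw fragment counts per exon row. Per the file headers, the authors counted GRCm38 alignments with featureCounts 2.0.1 and GENCODE M23, per exon row and without strand; a pair needed both mates mapped to the same chromosome. The submitters' processing notes name Trim Galore 0.6.7 and STAR 2.7.9a. Rows were summed per gene identifier, and symbols were matched for 55154 of 55335 genes. Transcript types came from GENCODE M21, which has 99.7% of the rows. In all 4 tables, 64.8% of rows share their coordinates with another and held no fragment.

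Totals ran from 3614418 to 4537006 fragments, and all intervals cover counting error only. The fit used edgeR 4.0.16 (R 4.3.3, filterByExpr at 10 fragments, TMM, quasi-likelihood, two-sided) on 12434 genes. It was first run on simulated counts with the same spread for all genes, which was not matched to these libraries. That run therefore does not show how the fit performs on them. DESeq2 1.42.0 and limma-voom 3.58.1 were alternatives, with other filters, factors, exon rows, a Y-linked covariate and each library left out. Whether the libraries came from separate animals is not stated, so the p-values may reflect technical spread only; every pair differed beyond counting noise (chi-square over its degrees of freedom at least 40.1). The 9 genes and all lists were chosen with earlier results of these data known. Genes named beside the 9 include the 3 tested genes with the highest mean CPM in each companion list. They also include the marker of each other cell type with the highest mean over the libraries. The 5 of nearest pattern and Mettl3 were named too, and further ones were picked after their values were seen. Some genes of the lists are not reported here.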

Additional observations from a re-analysis of the deposited data

How the results depend on the processing

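None of the 9 genes was called under any of the 13 alternatives. Over all genes, edgeR called 0, edgeR without a low-count filter 27, DESeq2 17 (4 higher and 13 lower), limma-voom 0, and edgeR with 1 library left out 0 to 4. The log2 fold changes of Lyz2, Cd14, Csf1r, Adgre1, Cd68, Ly6c2 and Spi1 were positive in every alternative in which they could be tested. That of Tyrobp lay between -0.10 (without control 2) and 6.75 (without control 1, against 0 fragments). The median of the tested members lay between 0.70 (without control 2) and 3.12 (without control 1) with 1 library left out, and between 1.02 and 1.85 under the others. The median of all genes was 0.20, -0.055 where each library had to hold a fragment of the gene and -0.012 without Cre 1, so shifts of that size have no direction; without control 1 it was 1.72. The cause of these shifts was not tested. Leaving out 1 library for the count of members above the controls was an alternative added after seeing the data. The count was 6 of 8 without Cre 1 and 7 without Cre 2, and no share over all genes was computed for these. Without control 1 it was 8, above control 2 alone, as for 54.5% of all tested genes. Without control 2 it was 6, above control 1 alone, as for 28.8% of all tested genes. Among the alternatives that kept all 4 libraries, the lowest adjusted p of Ly6c2 was 0.33, by DESeq2. That of Cd14 was 0.22, by edgeR without a low-count filter. Plac8 entered only the fit without a filter, and no value is given because it lies under the limit of 3 fragments. Ly6c2 could not be tested without retained-intron rows or without its most counted row. Genes with an unadjusted p under 0.05 numbered 62 to 593 under the alternatives other than leaving out control 1, with 427 by DESeq2, where Cd14 had an unadjusted p above 0.05, and 397 without control 2. No paired analysis was possible because the labels number no replicates, and the numbers used here only name libraries. Csf1r, Cd68, Tyrobp and Plac8 rest on between 2 and 179 fragments each, summed over the 4 libraries.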

Other observations

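Lyz1, the neighbour and near copy of Lyz2, did not show the order of libraries seen for Lyz2. It was at 1875 and 1065 CPM in Cre 1 and Cre 2, against 1992 and 233.9 CPM in control 1 and control 2, and each of its 4 exon rows overlapped between the genotypes. Per 1000 Lyz2 fragments there were 130.7 and 98.6 Lyz1 fragments in the Cre libraries, against 212.4 and 60.3 in the controls. Lyz1 was picked after its values were seen.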
